A study of Mus musculus with 21 samples.

Results

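Left ventricles of 4 R403Q mice fed empagliflozin (EMPA) were compared with left ventricles of 5 wild-type mice fed the control diet (CD), which asks what still separated treated mutant hearts from normal hearts. These 9 mice were all the mice of the groups R403Q-EMPA and WT-CD, out of 21 in the series, and were chosen by their group labels alone. All mice were males of the 129S6/SvEv strain. The R403Q mice carried 1 mutated copy of Myh6, the gene of α-cardiac myosin heavy chain. The change was named R403Q in the group names and R404Q in the genotype label of the allele. The WT mice were littermates without it. EMPA was mixed into the chow at 0.15 mg per g of diet, about 15 mg per kg of body weight. Diets were begun at 9 to 10 weeks of age. By the study's methods these hearts were taken at 12 weeks of age, after 2 weeks of diet, whereas the label text gives 16 weeks on diet. The mutation is a germline change carried by every cell, and each library was labelled with 1 animal. The 5 WT-CD mice came from 4 cages and the 4 R403Q-EMPA mice from 2 other cages. Genotype, diet and cage therefore cannot be told apart within this comparison.

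The R403Q change in cardiac myosin is a classic cause of hypertrophic cardiomyopathy, in which the ventricular wall thickens, fibrosis develops, and fetal genes such as the natriuretic peptides are switched back on. Cardiac myosin is the motor that turns ATP into contraction, and hearts with the mutated motor contract hard, relax poorly and use energy wastefully. EMPA blocks the sodium-glucose cotransporter SGLT2 of the kidney tubule. Glucose is then lost in urine and the body turns towards fat and ketone bodies as fuel.

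RNA was measured by poly(A) RNA-seq as read counts per gene. The 9 libraries held 23491535 to 40600094 counts (median 31625364), so a total of 3 counts corresponded to 0.0739 to 0.128 CPM (counts scaled to the library total), a limit of counting error alone. Spearman correlations of the counts between the 9 mice were 0.954 to 0.960. In a principal component analysis of the 9 mice, the first component took 21.6% of the variance and separated the groups. The share of counts on Myh6 was 4.24 ± 0.189% (SD, n = 5 WT-CD mice) against 3.51 ± 0.419% (SD, n = 4 treated R403Q mice). Counts per gene do not show the allele, so they do not check the genotype. All 8 ventricular cardiomyocyte markers were tested (median log2 fold change -0.10), and 1 of them, Myl3, was lower at an unadjusted p under 0.05. Their summed level was 89525 to 99398 CPM in WT-CD and 76248 to 88913 CPM in R403Q-EMPA, but Myh6 is one of them, and the sum of the other 7 overlapped, at 47859 to 54387 and 43161 to 57364 CPM. In bulk tissue, fewer cells of a type and less RNA per cell cannot be told apart.

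Of 17025 genes tested, 84 differed between R403Q-EMPA and WT-CD at an adjusted p under 0.05 (0.493%; edgeR quasi-likelihood F test with Benjamini-Hochberg adjustment). Among these, 54 were higher in R403Q-EMPA (0.317% of tested genes) and 30 were lower (0.176%). The median log2 fold change was 0.94 for the higher genes (range 0.25 to 2.28) and -0.68 for the lower genes (0.31 to 1.91 in size), against 0.01 over all tested genes. The 4 and 5 mice did not overlap in 54 of 54 higher genes and in 29 of 30 lower genes, the exception being E230013L22Rik. Among all tested genes, 3.92% did not overlap with R403Q-EMPA higher and 3.53% with R403Q-EMPA lower. At an unadjusted p under 0.05, 7.17% of tested genes were higher and 5.05% were lower. The smallest adjusted p belonged to a long noncoding RNA, AC119982.1, named here after its value was seen (6.96, 5.14, 6.71, 7.99 and 8.50 CPM in WT-CD mice 1 to 5, 24.4, 17.1, 19.8 and 23.4 CPM in R403Q-EMPA mice 1 to 4). Its log2 fold change was 1.58 ± 0.17 (SE; adjusted p = 5.02e-04). Calls were sensitive to single mice. Fits that left out any 1 of the 9 mice called 25 to 52 genes, the fewest without R403Q-EMPA mouse 3. With cage as a random effect 45 genes were called (27 higher and 18 lower), all of them among the 84. A fit of the 9 mice alone called 668 (393 and 275), with all 84 among them. R403Q-CD mouse 2 is in neither arm but enters the shared estimate of spread. Without it the same comparison called 417 genes (277 higher and 140 lower), among them all 84, and without R403Q-CD mice 2 and 5 it called 578 (343 and 235), also with all 84 among them.

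The other 12 mice of the series allowed a second look with none of the 9 animals in it. There, 7 R403Q-CD mice were set against 5 WT-EMPA mice, so the genotype difference had the same direction and the diets were exchanged. A difference that goes with genotype keeps its sign in this exchanged-diet comparison, whereas one that goes with diet turns it. No cage held both diets, so a difference between the cages of the CD and EMPA mice can turn in the same way, and diet and cage cannot be told apart here either. A gene that genotype and diet or cage shift in the same direction can stand near 0 there. So can a gene in which only WT-CD or only R403Q-EMPA stands apart. The exchanged-diet comparison called 1947 of 16689 genes (11.7%), with 16.7% of genes higher and 15.6% lower at an unadjusted p under 0.05. R403Q-CD mouse 2 stood far from the other 20 mice on the first component of all 21 (at 81.8), and R403Q-CD mouse 5 was next (44.4, the remaining mice at up to 14.7). Their summed atrial cardiomyocyte markers were 13869 and 5337 CPM, against 2027 to 2542 CPM in the other 5 R403Q-CD mice. Nppa is one of these markers, so the sums do not measure atrial tissue alone. Without mouse 2, 16.2% were higher and 15.6% lower, and without both 13.6% and 15.4%. Of the 84 genes, 53 had the same sign in the exchanged-diet comparison and 31 had the opposite sign. At an unadjusted p under 0.05, 28 of the 84 had the same sign and 7 the opposite sign. For the 54 higher genes, 19 were higher and 5 were lower; for the 30 lower genes, 9 were lower and 2 were higher. With R403Q-CD mouse 2 left out, 83 of the genes were tested, and the counts were 27 with the same and 9 with the opposite sign (26 and 7 without mice 2 and 5). The R403Q-CD mice enter the estimate of spread of the main fit but not its group means.

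**Figure D1:**
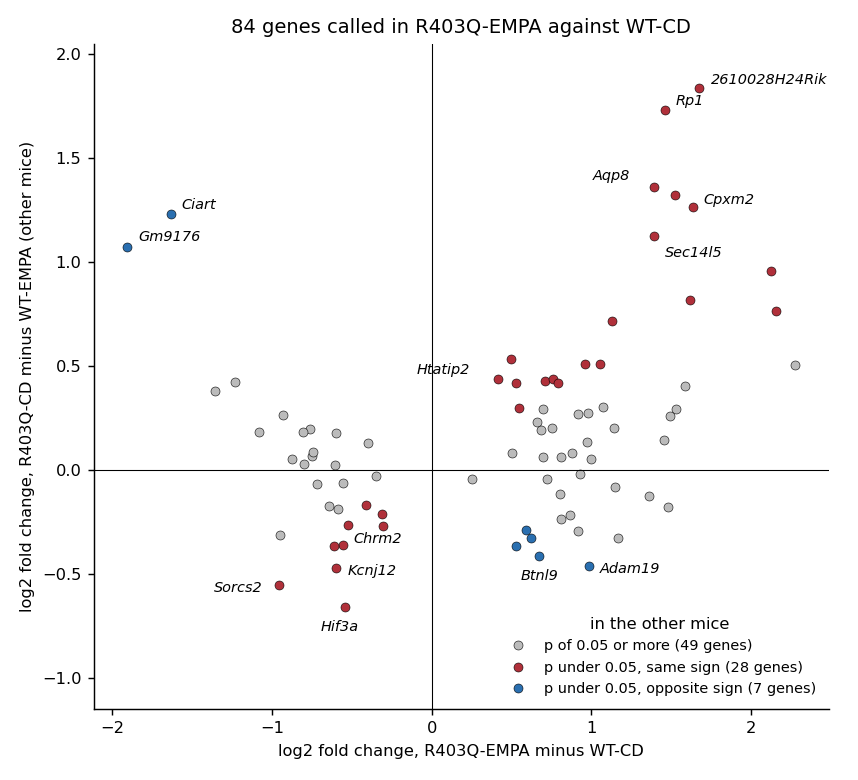
Log2 fold change of the 84 called genes in R403Q-EMPA against WT-CD (horizontal axis) and in R403Q-CD against WT-EMPA (vertical axis), 1 point per gene, marked by whether the second comparison had an unadjusted p under 0.05 with the same or the opposite sign. Of the 84 genes, 53 lie in the quadrants of equal sign, and 28 of these passed in both sets of mice.

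Chrm2, Adora1 and Kcnj12, which slow or steady the heartbeat, were lower in treated R403Q hearts. Chrm2 encodes the M2 muscarinic receptor, through which the vagus nerve slows the heart. Its levels were 217, 195, 192, 188 and 178 CPM in the WT-CD mice and 131, 130.03, 111 and 155 CPM in the R403Q-EMPA mice. Every R403Q-EMPA mouse lay below every WT-CD mouse, and Chrm2 fell by 0.56 ± 0.10 on the log2 scale (SE; edgeR adjusted p = 0.0207). Adora1, the A1 adenosine receptor that lowers rate and conduction, was at 29.2, 27.9, 24.4, 25.4 and 24.6 CPM in WT-CD and at 17.0, 20.7, 15.7 and 16.6 CPM in R403Q-EMPA. The groups again did not overlap (log2 fold change -0.58 ± 0.10, adjusted p = 0.0123). Kcnj12, a subunit of the inward rectifier that holds the resting potential, was at 34.8, 33.1, 27.2, 32.8 and 29.7 CPM and 19.1, 25.1, 18.7 and 20.5 CPM in the same order (-0.60 ± 0.12, adjusted p = 0.0319). All 4 treated mice were below all 5 controls.

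In the exchanged-diet comparison, Chrm2 was at a log2 fold change of -0.36 ± 0.08 (edgeR adjusted p = 0.0229) and Kcnj12 of -0.47 ± 0.11 (adjusted p = 0.0253). Adora1 had the same sign and did not pass (-0.19 ± 0.11, adjusted p = 0.238). Chrm2 was at 131, 154 and 173 CPM as lowest, median and highest of the 7 untreated R403Q-CD hearts, and at 189, 191, 189, 185 and 231 CPM in the WT-EMPA mice. The calls depended on single animals to different degrees. Adora1 lost its call only without R403Q-EMPA mouse 3 among the 9 fits that left out 1 mouse (adjusted p = 0.0633). Chrm2 lost its call without R403Q-EMPA mouse 1, 2 or 3 or WT-CD mouse 1 (up to 0.0855, without R403Q-EMPA mouse 3). Kcnj12 kept its call only without R403Q-EMPA mouse 2 or WT-CD mouse 3 (up to 0.121, without R403Q-EMPA mouse 3).

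Of 23 tested adenosine, muscarinic and adrenergic receptor and effector genes, 0 were higher and 4 were lower at an unadjusted p under 0.05, and the list's median log2 fold change was -0.03. The other 2 lower genes were Rgs4, a brake on G protein signals (-0.24), and Adcy5, an adenylyl cyclase of cardiomyocytes (-0.20). Of 36 action potential and pacemaker channel genes, 1 was higher and 5 were lower (median -0.14). Hcn4, the main pacemaker channel, had 8.88 to 15.9 CPM in WT-CD and 5.64 to 9.91 CPM in R403Q-EMPA (-0.71 ± 0.23, edgeR adjusted p = 0.189). Cacna1g, a T-type calcium channel of pacemaking, had 36.3 to 45.2 and 24.7 to 32.3 CPM (-0.58 ± 0.17, adjusted p = 0.133). Neither was called. Kcnj5, which forms the acetylcholine-gated potassium channel downstream of Chrm2, had a log2 fold change of -0.38 (unadjusted p = 0.00681, edgeR). In the exchanged-diet comparison, 0 of the 36 channel genes were higher and 19 were lower, the same with R403Q-CD mouse 2 left out, and of 22 receptor genes 0 were higher and 9 lower (8 without that mouse). Adora1, Hcn4 and Cacna1g are among 8 genes that an earlier analysis of these data had picked as genotype markers, so their direction is not independent evidence. Of 7 tested conduction system markers, 4 had values above and 3 below 0 in R403Q-EMPA against WT-CD (median log2 fold change 0.22). Hcn4 and Cacna1g were the 2 with an unadjusted p under 0.05, and 3 were lower at that p with exchanged diets.

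**Figure D2:**
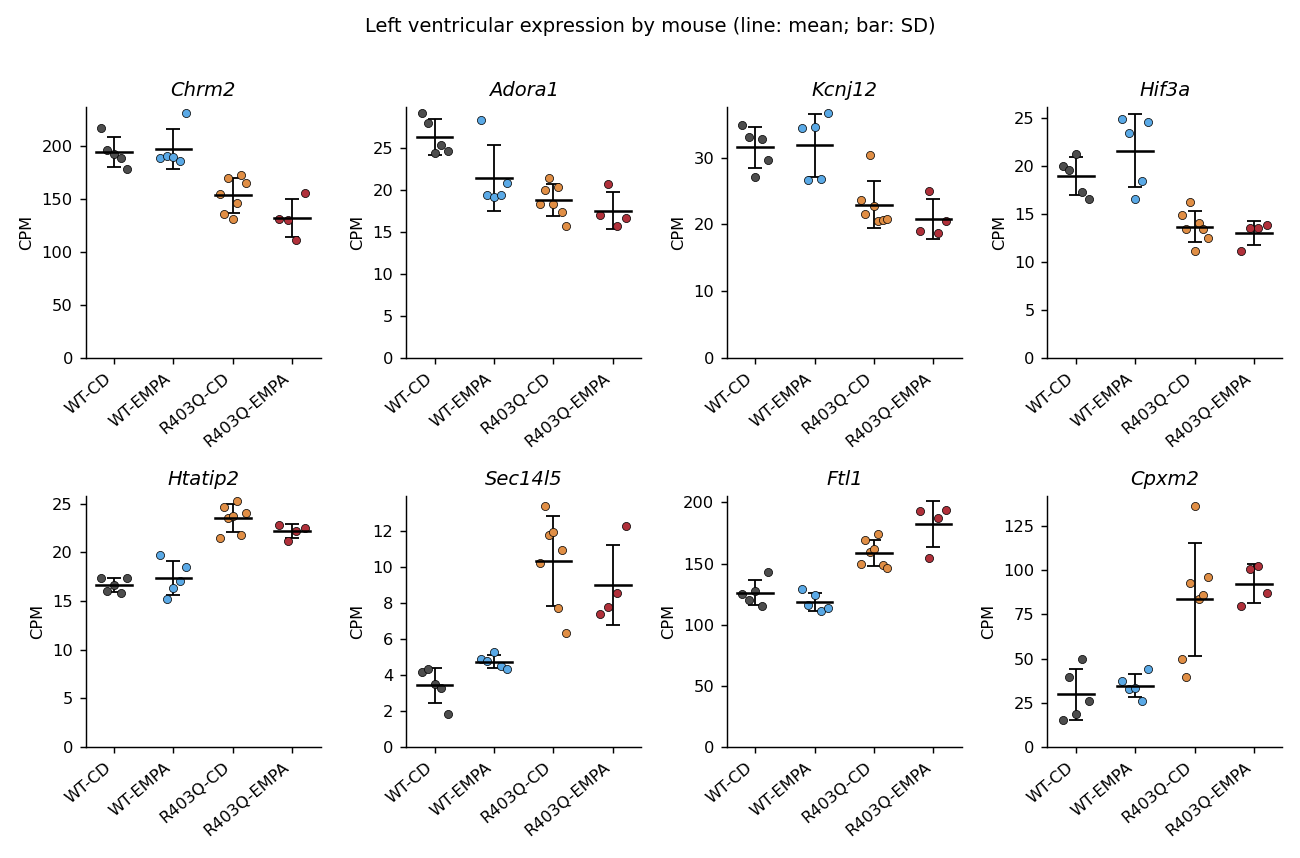
CPM per mouse in the 4 groups for genes called in R403Q-EMPA against WT-CD that had the same sign in the exchanged-diet comparison, 1 point per mouse, with a line at each group mean and a bar of 1 SD. In Chrm2, Adora1, Kcnj12 and Hif3a the 4 R403Q-EMPA points sit below all 5 WT-CD points, and in Htatip2, Sec14l5, Ftl1 and Cpxm2 above them.

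A small set of genes was higher in R403Q hearts in both sets of mice. Htatip2, an oxidoreductase studied as a metastasis suppressor, was at 17.4, 16.0, 16.7, 15.8 and 17.4 CPM in WT-CD and at 22.9, 21.2, 22.2 and 22.5 CPM in R403Q-EMPA. The spread within each group was far smaller than the gap between them (log2 fold change 0.41 ± 0.06, edgeR adjusted p = 0.00695), and the exchanged-diet comparison gave 0.44 ± 0.07 (adjusted p = 0.00910). Htatip2 passed in all 19 alternative fits. Sec14l5, a member of a family of lipid-transfer proteins, rose from 3.42 ± 0.976 CPM (SD, n = 5) to 8.99 ± 2.24 CPM (SD, n = 4), a log2 fold change of 1.39 ± 0.24 (adjusted p = 0.0152). It missed the threshold only without R403Q-EMPA mouse 4 among the fits that left out 1 mouse (adjusted p = 0.0506). Exchanged diets gave 1.13 ± 0.17 for Sec14l5. Htatip2 and Sec14l5, like Rp1 below, belong to the 8 genotype markers of the earlier analysis as well, so their direction is not independent evidence. Of the 8, 7 had an unadjusted p under 0.05 here (3 higher, 4 lower).

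Ftl1, the light chain of ferritin that stores iron, was at 125, 120.0, 127, 116 and 143 CPM in WT-CD and at 193, 154, 188 and 194 CPM in R403Q-EMPA. R403Q-EMPA mouse 2 was the lowest of the treated mice and still above every WT-CD mouse. The log2 fold change was 0.53 ± 0.08 (edgeR adjusted p = 0.00746), against 0.42 ± 0.07 in the exchanged-diet comparison (adjusted p = 0.00697), and the call held in all 19 alternatives. The processed copy Ftl1-ps1 was called too (0.49, called in 1 of the 9 fits without 1 mouse, up to 0.122 without R403Q-EMPA mouse 3, and 0.0804 with cage as a random effect), but reads can be split between these near-identical sequences, so the share of each is uncertain. Of 30 tested oxidative stress and NRF2 target genes, 8 were higher and 0 lower at an unadjusted p under 0.05 (median 0.15). Besides Ftl1 these were the heme oxygenase gene Hmox1 (0.77), the glutathione synthesis genes Gclc (0.24) and Gclm (0.29), Gsta1, Prdx1, Cat and Gpx1, none of them called. Exchanged diets gave 14 of 30 higher and 0 lower, also without R403Q-CD mouse 2 (13 and 2 without mice 2 and 5).

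Other genes were also called in both comparisons with the same sign. Several of these calls depended on single mice. Cpxm2, a secreted carboxypeptidase-like protein, was at 15.1, 39.8, 18.5, 49.5 and 26.0 CPM in WT-CD and at 79.6, 101, 103 and 86.9 CPM in R403Q-EMPA (1.63 ± 0.34, edgeR adjusted p = 0.0357). The groups did not overlap, the controls spread more widely than the treated mice, and Cpxm2 was called in 1 of 9 fits that left out a mouse, the one without WT-CD mouse 4. The highest adjusted p was 0.109, without R403Q-EMPA mouse 3. Rp1, known as a photoreceptor microtubule protein, had 1.63 to 3.14 CPM in WT-CD and 5.51 to 6.70 CPM in R403Q-EMPA (1.46 here and 1.73 in the exchanged-diet comparison). It kept its call only without WT-CD mouse 2 in the same 9 fits, with an adjusted p of up to 0.108 without R403Q-EMPA mouse 3. Its adjusted p was 0.155 with cage as a random effect and 0.0592 in limma on the variance-stabilized values. The water channel gene Aqp8 had log2 fold changes of 1.39 and 1.36 at low mean levels (1.37 ± 0.585 and 3.61 ± 0.913 CPM), and it was called in 3 of those 9 fits (up to 0.0956, without R403Q-EMPA mouse 3). Sorcs2, a sorting receptor of the Vps10p family, was lower in both (-0.96 and -0.55; called in 2 of the 9 fits, up to 0.0855 without R403Q-EMPA mouse 3), and so was Syngr2, a vesicle membrane protein (-0.31 and -0.27; called in 1 of the 9, up to 0.0916 without R403Q-EMPA mouse 1). The remaining shared calls were provisional genes: Gm35330, 2010001K21Rik, 2610028H24Rik, Gm14964 and Gm12092 on the higher side and E230013L22Rik on the lower. With cage as a random effect Syngr2 (0.0636), 2610028H24Rik (0.101), Gm14964 (0.0629), Gm12092 (0.0766) and E230013L22Rik (0.0646) had an adjusted p (limma) above the threshold. Of the 9 fits without 1 mouse, 4 called 2610028H24Rik, 3 called Gm14964, 2 called E230013L22Rik and 0 called Gm12092. The highest adjusted p (edgeR) was 0.0774, 0.0691 and 0.146 without R403Q-EMPA mouse 3 for the first 3 of them, and 0.103 without R403Q-EMPA mouse 1 for Gm12092. Gm35330 rose from 8.58 ± 1.25 to 16.7 ± 1.36 CPM (0.96 ± 0.12, adjusted p = 0.00300) and, like 2010001K21Rik, was called in all 19 alternatives.

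Macrophage marker genes had higher levels in treated R403Q hearts. All 9 macrophage markers were higher at an unadjusted p under 0.05 (median log2 fold change 0.64), although none passed the adjustment singly. Their summed level was 376, 435, 445, 463 and 523 CPM in the WT-CD mice and 753, 749, 613 and 614 CPM in the R403Q-EMPA mice. The lowest treated mouse exceeded the highest control. The complement gene C1qa had 41.3 to 58.6 CPM in WT-CD and 63.9 to 91.3 CPM in R403Q-EMPA (0.65), the scavenger receptor gene Cd163 37.5 to 50.6 and 52.2 to 64.3 CPM (0.30), and Csf1r, the receptor of the macrophage growth factor, 43.9 to 54.7 and 61.6 to 70.8 CPM (0.47). With exchanged diets 8 of 9 markers were higher and 0 lower, also without R403Q-CD mouse 2. The sum was 533 to 910 CPM in R403Q-CD and 317 to 562 CPM in WT-EMPA.

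Several of the called higher genes are typical of macrophages and other myeloid cells. Ccl6, a chemokine of resident macrophages, was at 19.2, 18.4, 19.8, 26.7 and 20.4 CPM in WT-CD and at 38.8, 47.7, 36.8 and 40.2 CPM in R403Q-EMPA. WT-CD mouse 4 was the highest control and lay below all treated mice, and Ccl6 rose by 0.97 ± 0.16 on the log2 scale (edgeR adjusted p = 0.0110). Wfdc17, a small secreted protein of activated macrophages, was at 2.04, 1.79, 2.06, 2.30 and 2.79 CPM and 5.47, 5.59, 6.72 and 4.80 CPM (1.36 ± 0.21, adjusted p = 0.00746). Both passed in all 19 alternatives. Nfam1, an activating immune receptor (0.75), and Cd300a, an inhibitory one (1.07), were also called, with levels of 3.16 to 4.01 and 4.92 to 7.17 CPM for Nfam1. Each passed in 6 of 9 fits that left out a mouse, with an adjusted p of up to 0.0603 for Nfam1 without R403Q-EMPA mouse 4 and up to 0.0596 for Cd300a without R403Q-EMPA mouse 1. Nfam1 was lost without R403Q-EMPA mouse 2 or 4 or WT-CD mouse 1, and Cd300a without R403Q-EMPA mouse 1 or 3 or WT-CD mouse 1. Further called genes of this kind, named after their values were seen, were Vsig4 (1.49), Cfp (0.69), Cysltr1 (0.98), Alox5ap (0.71), Fcgr2b (0.76), Laptm5 (0.79), Ptafr (0.93), Cd302 (0.69) and F13a1 (0.66). Only Vsig4 and Cfp of these 9 were also called with cage as a random effect, and each of the 9 was called in 0 to 4 of the 9 fits without 1 mouse. With exchanged diets Alox5ap (0.43), Fcgr2b (0.44) and Laptm5 (0.42) were higher at an unadjusted p under 0.05, while the other 10 of these 13 named genes did not pass, with values from -0.13 in Wfdc17 to 0.30 in Cd300a. The group was put together after the values were seen.

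Antigen presentation genes lay on the same side. All 22 tested had log2 fold changes above 0 (median 0.33, against 52.3% above 0 and a median of 0.01 over all genes), and 8 were higher at an unadjusted p under 0.05. These included B2m, the constant chain of class I molecules (0.66), the class I heavy chains H2-K1 (0.51) and H2-D1 (0.56), and the peptide transporter gene Tap2 (0.18). The class I genes are a family of near-identical copies, so their separate values are uncertain. None was called. Exchanged diets had 15 of 22 higher and 0 lower (13 without R403Q-CD mouse 2). Type I interferon response genes had 37 of 41 above 0 (median 0.17), with 3 higher and 0 lower at that p: Rsad2 (0.58), Ifi27l2a (1.26) and Gbp6 (0.46). The 3 of 41 are about the share over all tested genes, of which 7.17% were higher at that p. The exchanged-diet comparison had 34 of 41 higher and 1 lower (28 of 40 and 1 without R403Q-CD mouse 2, 22 of 39 and 1 without mice 2 and 5).

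Markers of blood cells differed as well. All 5 red blood cell markers, the globin genes and Alas2, were higher at an unadjusted p under 0.05, with summed levels of 1182, 1009, 706, 968 and 1279.6 CPM in WT-CD and 2660.1, 1894, 1748 and 1214 CPM in R403Q-EMPA. One treated mouse lay within the control range. Exchanged diets gave 0 higher and 3 lower (2 without R403Q-CD mouse 2), the opposite direction. The 4 neutrophil markers were all higher (summed level 2.31 to 11.4 CPM against 6.06 to 30.7 CPM, with overlap), and 0 were higher and 3 lower in the exchanged-diet comparison. Of 8 fibroblast markers 3 were higher (Pdgfra, Dcn and Dpt; sums 2145 to 3580 and 3266 to 3733 CPM), of 8 endothelial markers 3 (Kdr, Tek and Fabp4; sums 2063 to 2207 and 2247 to 2686 CPM), and of 6 smooth muscle markers 2 were lower (Smtn and Mylk). With exchanged diets 5 of the 8 fibroblast, 2 of the 8 endothelial and 3 of the 6 smooth muscle markers were higher and 0 lower, also without R403Q-CD mouse 2. Without mice 2 and 5, 1 smooth muscle marker was higher and 0 lower, and 5 fibroblast markers were higher and 1 lower. The lymphatic marker Ccl21a was at 0 in all 9 mice. The part of cell composition in any gene's difference was not tested.

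**Figure D3:**
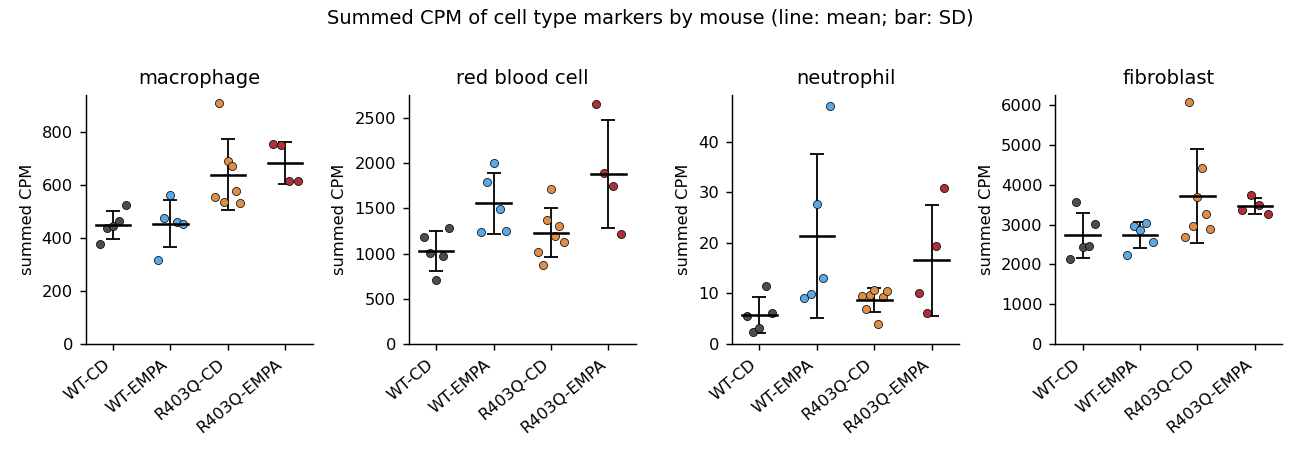
Summed CPM of macrophage, red blood cell, neutrophil and fibroblast marker genes, 1 point per mouse in the 4 groups, with a line at each group mean and a bar of 1 SD. The macrophage sum is 376 to 523 CPM in WT-CD and 613 to 753 CPM in R403Q-EMPA, whereas the red blood cell and neutrophil sums of R403Q-EMPA overlap those of WT-CD.

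Plin2, Acsl3, Btnl9 and Cp were higher in treated R403Q hearts than in normal hearts and had the opposite sign when the diets were exchanged. Of 40 tested PPARα targets and lipid storage genes, 11 were higher and 1 was lower at an unadjusted p under 0.05 (median 0.12), while the exchanged-diet comparison had 2 higher and 23 lower (4 and 21 without R403Q-CD mouse 2). PPARα is the nuclear receptor that switches on fat burning in the heart. Plin2, which coats lipid droplets, was the called member, at 65.1, 48.2, 52.7, 62.7 and 55.7 CPM in WT-CD and 87.5, 93.3, 88.6 and 72.0 CPM in R403Q-EMPA. All treated mice were above all controls (0.59 ± 0.12, edgeR adjusted p = 0.0393), and in the exchanged-diet comparison Plin2 was -0.29 ± 0.12 (unadjusted p = 0.0338). The call was lost without any 1 of R403Q-EMPA mice 1 to 3 or WT-CD mice 1 to 5 (adjusted p up to 0.120, without R403Q-EMPA mouse 3), and with cage as a random effect (0.0646).

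Angptl4, a secreted inhibitor of lipoprotein lipase, was at 22.9, 7.58, 19.8, 19.9 and 8.15 CPM in WT-CD and at 41.8, 58.8, 51.8 and 45.4 CPM in R403Q-EMPA. The log2 fold change of 1.67 ± 0.40 did not pass after adjustment (edgeR adjusted p = 0.0665), and the exchanged-diet value was -1.46 ± 0.36. WT-EMPA hearts were at 63.8, 33.2, 69.1, 28.8 and 69.1 CPM, each above all WT-CD mice, and R403Q-CD hearts at 4.85, 19.7 and 29.0 CPM as lowest, median and highest. Pdk4, the kinase that shuts pyruvate out of mitochondria, had 3039, 1018, 1527, 2263 and 918 CPM and 2803, 3563, 4394 and 4972 CPM, with values of 1.17 ± 0.41 and -1.14 ± 0.35 in the 2 comparisons (adjusted p = 0.222 in the first). The acyl-CoA thioesterase gene Acot1 had 1.34 and -1.62, and the uncoupling protein gene Ucp3 had 0.85 and -0.98. Acsl3 and Btnl9 were called in both comparisons. Acsl3, which activates fatty acids at lipid droplets, rose from 7.27 ± 0.725 to 11.2 ± 0.984 CPM (0.62 ± 0.11, adjusted p = 0.0207; -0.33 with exchanged diets, adjusted p = 0.0460). Btnl9, a butyrophilin-like membrane protein, rose from 51.6 ± 5.54 to 82.2 ± 10.3 CPM (0.67 ± 0.11, adjusted p = 0.0123; -0.42, adjusted p = 0.0309). Acsl3 missed the threshold without R403Q-EMPA mouse 3 or WT-CD mouse 3 or 5 (up to 0.0855) and Btnl9 without R403Q-EMPA mouse 3 (0.0615). Cp, the copper-carrying ferroxidase ceruloplasmin, was 0.53 ± 0.09 (adjusted p = 0.0123) and -0.37 ± 0.15 (unadjusted p = 0.0268), and passed in each of the 9 fits without 1 mouse but not in the fit of all 21 mice (adjusted p = 0.103). WT-EMPA hearts, which had the drug and no mutation, held 301 ± 92.5 CPM of Cp (SD, n = 5), against 207 ± 28.7 CPM in WT-CD, 233 ± 14.4 CPM in R403Q-CD (SD, n = 7) and 298 ± 11.8 CPM in R403Q-EMPA.

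Mitochondrial fatty acid oxidation enzymes held no called gene in the reported fit. Of 26 tested, 0 were higher and 1 was lower at an unadjusted p under 0.05 (median 0.04), against 7.17% and 5.05% of all tested genes. With 26 genes, counts this small cannot be told from those shares. The exchanged-diet comparison had 1 higher and 16 lower (0 and 18 without R403Q-CD mouse 2). Cpt1b, the gate for fatty acids into mitochondria, was at 7.76 to 11.7 CPM in WT-CD and 10.2 to 12.5 CPM in R403Q-EMPA (0.19 ± 0.15, edgeR adjusted p = 0.679), and Cpt2 stood at -0.07 ± 0.14 on the log2 scale (adjusted p = 0.900). Neither passed.

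Ciart and Hlf, genes of the circadian clock, were lower in treated R403Q hearts, beside several clock genes that did not pass adjustment. The clock is a feedback loop in which ARNTL and CLOCK bind E-boxes and switch on the Per, Cry and Nr1d genes, whose proteins in turn hold ARNTL back. Of 19 core clock genes, 3 were higher (Arntl, Clock and Rorb) and 7 lower (Per1, Per2, Per3, Cry2, Nr1d1, Nr1d2 and Ciart) at an unadjusted p under 0.05, with a median of -0.04. Ciart, a repressor within the loop, was the called member. It was at 11.3, 13.4, 15.1, 11.5 and 15.2 CPM in WT-CD and at 7.47, 3.88, 2.27 and 3.65 CPM in R403Q-EMPA, each treated mouse below each control. The log2 fold change was -1.63 ± 0.30 (edgeR adjusted p = 0.0217), against 1.23 ± 0.35 in the exchanged-diet comparison (adjusted p = 0.0403). The call was lost without R403Q-EMPA mouse 2, 3 or 4 or WT-CD mouse 3 or 5 (adjusted p up to 0.0814, without R403Q-EMPA mouse 3).

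Promoters of clock genes that were lower show where the loop's motifs stand in reference sequence. Among 35 clock and clock output genes with a promoter in the RefSeq table for GRCm38.p6 (250 bases before to 50 bases after the start of transcription; the first promoter listed for each gene was counted, here and over all genes), 9 held the E-box CACGTG (25.7%, against 7.24% of 27025 promoters). The D-box TTATGTAA, in either direction, was in 2 (5.71% against 0.955%), and the receptor motif AGGTCA of the NR1D and ROR receptors was in 6 (17.1% against 16%). A match describes the letters only and does not show binding. Below, the E-box, D-box and receptor motif letters are in capitals and each sequence runs 5′ to 3′ on the gene's strand; the promoters of Ciart (chr3:95882179-95882478, minus strand), Per1 (chr11:69098699-69098998, plus strand), Per3 (chr4:151044616-151044915, minus strand) and Klf15 (chr6:90462326-90462625, plus strand) are shown because, among the genes on the lower side, they carry each motif at least once and Ciart is the called core clock gene. They were picked for holding motifs: of 12 clock and clock output genes that were lower at an unadjusted p under 0.05 and had a promoter, 7 held any of the 3 motifs, and Hlf, Dbp, Cry2, Nr1d1 and Usp2 held none. Of 7 such genes on the higher side 4 held a motif, among them Lonrf3 and Slc41a3 with the E-box. No capital stretches overlap.
Ciart: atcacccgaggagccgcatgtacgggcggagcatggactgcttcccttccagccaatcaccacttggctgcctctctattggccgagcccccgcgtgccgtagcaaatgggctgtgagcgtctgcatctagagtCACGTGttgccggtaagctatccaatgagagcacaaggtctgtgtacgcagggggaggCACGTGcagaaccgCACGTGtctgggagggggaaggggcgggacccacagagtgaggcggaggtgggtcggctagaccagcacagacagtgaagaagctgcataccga
Per1: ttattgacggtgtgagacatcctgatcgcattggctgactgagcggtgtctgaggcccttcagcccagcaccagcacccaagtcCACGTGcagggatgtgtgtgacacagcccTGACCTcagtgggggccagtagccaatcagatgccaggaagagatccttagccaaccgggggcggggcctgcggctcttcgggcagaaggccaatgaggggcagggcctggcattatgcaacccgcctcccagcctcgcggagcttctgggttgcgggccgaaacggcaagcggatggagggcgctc
Per3: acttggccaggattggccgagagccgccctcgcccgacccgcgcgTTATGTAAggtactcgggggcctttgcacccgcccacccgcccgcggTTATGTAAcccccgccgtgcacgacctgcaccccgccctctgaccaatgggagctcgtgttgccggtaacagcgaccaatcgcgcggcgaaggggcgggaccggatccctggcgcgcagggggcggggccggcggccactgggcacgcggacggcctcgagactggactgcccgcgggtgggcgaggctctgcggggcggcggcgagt
Klf15: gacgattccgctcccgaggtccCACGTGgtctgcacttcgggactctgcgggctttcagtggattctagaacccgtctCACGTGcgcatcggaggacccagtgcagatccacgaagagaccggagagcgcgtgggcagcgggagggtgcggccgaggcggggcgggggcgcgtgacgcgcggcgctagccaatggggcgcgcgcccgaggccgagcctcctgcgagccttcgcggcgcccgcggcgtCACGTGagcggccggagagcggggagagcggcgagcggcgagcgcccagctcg

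Ciart held 3 E-boxes, Klf15 held 3, Per1 held 1 E-box and 1 receptor motif (TGACCT on the other strand), and Per3 held 2 D-boxes. Klf15, a transcription factor that follows the clock and glucocorticoids, was at 145, 133, 137, 129 and 143 CPM in WT-CD and at 95.6, 95.7, 91.7 and 127 CPM in R403Q-EMPA (-0.42 ± 0.10, unadjusted p = 5.06e-04, edgeR). All 4 treated values were below the 5 controls, and R403Q-EMPA mouse 4 stood above the other 3 treated mice. Of 24 clock output genes, 4 were higher and 6 lower at that p (median -0.12). Hlf, a D-box binding factor, fell from 48.5 ± 5.07 to 26.5 ± 6.33 CPM (-0.87 ± 0.15, adjusted p = 0.0175), a call that was lost without R403Q-EMPA mouse 3 or 4 or WT-CD mouse 1 (up to 0.0691). Dbp, its relative and the classic clock output, had 67.2, 92.9, 128, 65.1 and 130.3 CPM and 65.6, 57.1, 23.0 and 29.5 CPM (-1.14 ± 0.32, adjusted p = 0.108). Per2 (-0.53, adjusted p = 0.138) and Nr1d1 (-0.96, adjusted p = 0.0999) were not called.

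Arntl, at 4.17, 2.15, 1.48, 2.63 and 1.27 CPM in WT-CD and 3.35, 4.32, 17.1 and 12.8 CPM in R403Q-EMPA, differed by 2.01 ± 0.52 on the log2 scale (adjusted p = 0.0876, edgeR). The treated mice fell into a lower and a higher pair, which were also the pairs by cage. The cage of R403Q-EMPA mice 1 and 2 also held WT-EMPA mouse 4, and the cage of mice 3 and 4 held WT-EMPA mouse 5. Arntl was 11.9, 2.49, 13.5, 1.98 and 10.0 CPM in WT-EMPA mice 1 to 5, so the 3 mice of the first cage were at 1.98 to 4.32 CPM and the 3 of the second at 10.0 to 17.1 CPM. The remaining EMPA cage held WT-EMPA mice 1 to 3, of which mouse 2 was low and mice 1 and 3 were high. No CD mouse was housed in these cages, so no value within a cage exists for R403Q-EMPA against WT-CD, and the part of cage in the clock values was not tested. In the exchanged-diet comparison, 3 of 19 core clock genes were higher and 5 lower (2 and 5 without R403Q-CD mouse 2, 1 and 4 without mice 2 and 5), and of the 24 output genes 7 were higher and 6 lower (6 and 6).

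**Figure D4:**
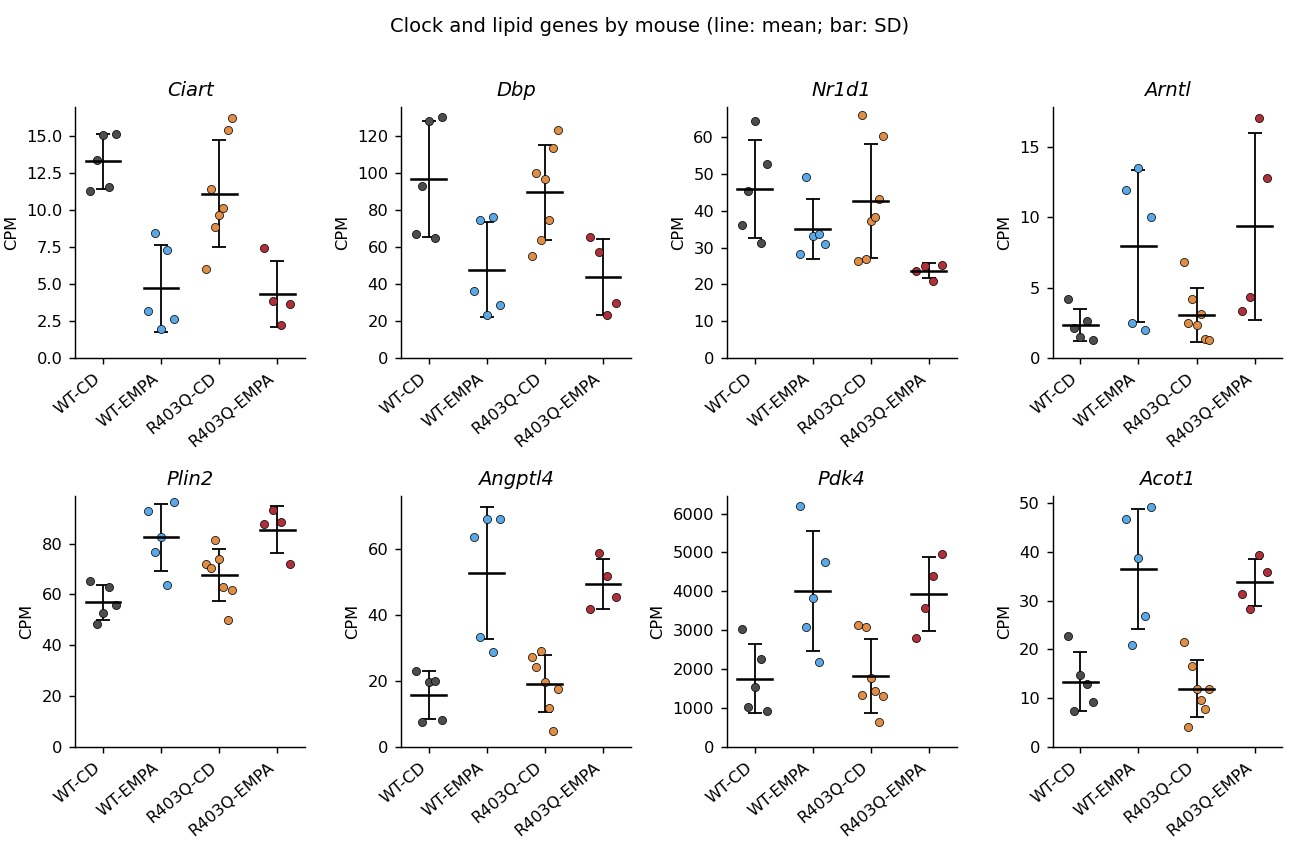
CPM per mouse in the 4 groups for clock genes and lipid genes, 1 point per mouse, with a line at each group mean and a bar of 1 SD. For Ciart the 4 R403Q-EMPA points lie below the 5 WT-CD points, Arntl splits the R403Q-EMPA mice into 2 pairs, and Plin2 and Angptl4 are higher in R403Q-EMPA.

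Arrdc2 and Hif3a, which respond to glucocorticoids, were lower in treated R403Q hearts. Of 25 tested genes of the glucocorticoid response, 2 were higher (Pdk4 and Angptl4, named above) and 6 were lower at an unadjusted p under 0.05 (median -0.11), and the exchanged-diet comparison had 8 higher and 4 lower. Arrdc2, an arrestin-domain protein, was at 13.3, 15.2, 13.9, 11.4 and 18.2 CPM in WT-CD and at 7.29, 8.17, 7.38 and 7.34 CPM in R403Q-EMPA. The treated mice were tightly grouped below the controls (-0.93 ± 0.15, edgeR adjusted p = 0.0110), and Arrdc2 passed in all 19 alternatives. Its exchanged-diet value was 0.26 ± 0.15 (adjusted p = 0.241). Hif3a, a member of the hypoxia-inducible factor family, fell from 18.9 ± 1.96 to 13.0 ± 1.29 CPM (-0.54 ± 0.11, adjusted p = 0.0319) and was lower with exchanged diets as well (-0.66 ± 0.12, adjusted p = 0.0102). Its call held in 2 of the 9 fits without 1 mouse, those without WT-CD mouse 4 or 5 (up to 0.104, without R403Q-EMPA mouse 1), and was lost with cage as a random effect (0.0646) and with scaling by library size alone. Fkbp5, a standard glucocorticoid target, had 149.6 to 173 and 92.0 to 145 CPM (-0.47, unadjusted p = 0.0292, edgeR).

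Among calls outside these groups, 8 named genes passed in all 19 alternatives. Bcl2l1, which encodes the survival protein BCL-XL, was at 132, 138, 111, 124 and 147 CPM in WT-CD and at 78.5, 81.9, 65.0 and 84.0 CPM in R403Q-EMPA, without overlap (-0.75 ± 0.11, edgeR adjusted p = 0.00540). The choline transporter gene Slc44a2 fell from 107 ± 8.26 to 73.1 ± 1.58 CPM (-0.55, adjusted p = 0.00425), and Noct, the rhythmic phosphatase nocturnin, fell from 64.3 ± 3.39 to 39.0 ± 5.60 CPM (-0.72, adjusted p = 0.00620). With exchanged diets the values of these 3 were 0.06, -0.06 and -0.07, and none passed. Their means in R403Q-CD and WT-EMPA were 117 and 112 CPM for Bcl2l1, 85.6 and 89.5 CPM for Slc44a2, and 51.0 and 53.5 CPM for Noct. Each lay between the means of WT-CD and R403Q-EMPA, so values near 0 do not place the difference in R403Q-EMPA alone. On the higher side stood Ptpro, a receptor-type tyrosine phosphatase (1.14), the neural adhesion gene Cntn5 (1.46), the cadherin gene Cdh4 (2.15), the olfactory receptor gene Olfr1396 (1.53) and the ganglioside synthase gene St3gal5 (0.55). Cdh4 was at 0.413 to 1.07 CPM in WT-CD and 1.57 to 4.95 CPM in R403Q-EMPA, and Olfr1396 at 1.12 to 1.65 and 2.67 to 5.11 CPM, so both were scarce transcripts. Of the 5 higher ones, Cdh4 (0.76) and St3gal5 (0.30) were also higher at an unadjusted p under 0.05 with exchanged diets. In R403Q-CD and WT-EMPA, Ptpro had means of 8.64 and 7.51 CPM, Cntn5 4.65 and 4.20 CPM, and Olfr1396 2.76 and 2.25 CPM. These too lay between the means of WT-CD and R403Q-EMPA.

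Other calls ended when single mice were left out. Notch4, the endothelial Notch receptor (-0.31), kept its call in the fits without 1 mouse only where R403Q-EMPA mouse 4 or WT-CD mouse 1 was left out (adjusted p up to 0.0973, edgeR, without R403Q-EMPA mouse 3), and was lost with scaling by library size alone (0.0655) and with no filter on low counts. Wfdc1, a secreted protease inhibitor-like protein (-0.76), was lost without R403Q-EMPA mouse 3 or 4 or WT-CD mouse 3 (up to 0.0855, without R403Q-EMPA mouse 3). The synapsin gene Syn3 (-1.08) was called only without R403Q-EMPA mouse 1 or WT-CD mouse 2 or 3, and Fam81a (-0.74) only without R403Q-EMPA mouse 4 or WT-CD mouse 2 or 3. Without R403Q-EMPA mouse 3 their adjusted p was 0.0857 and 0.0973, and Syn3 was also lost with cage as a random effect (0.0527) and with no filter (0.0584). Agap2, a GTPase-activating protein (-0.60), was lost without R403Q-EMPA mouse 1, 2 or 3 or WT-CD mouse 1 or 3 (up to 0.0607, without R403Q-EMPA mouse 1), and the ubiquitin ligase gene Dtx4 (0.81) without R403Q-EMPA mouse 2, 3 or 4 or WT-CD mouse 1, 2 or 3 (up to 0.0854, without R403Q-EMPA mouse 3). Genes outside the naming rule, given here after their values were seen, included on the higher side Cldn5, the tight junction gene of endothelium (0.87), the lipocalin gene Apod (1.48), the endocytic receptor gene Cubn (1.62), the kynurenine enzyme gene Kmo (1.15), the NRF2-linked Osgin1 (0.88), the protease gene Adam19 (0.98) and Clmp, Isg20, Rims4, Ticam2, Arhgap19 and Mkrn1. On the lower side they were Cdh13, the adiponectin-binding cadherin (-0.40), the importin gene Ipo13 (-0.53), the ubiquitin ligase gene Trim7 (-0.95), Lrrc75b (-1.35), Fam131a, Syde2, Chmp4c and Rcsd1. Of these 20 genes Cldn5, Cubn and Ipo13 were also called with cage as a random effect, and each of the 20 was called in 0 to 3 of the 9 fits without 1 mouse. Of all 38 called genes outside the rule, 10 were kept with cage as a random effect, 7 without R403Q-EMPA mouse 3 and 4 in every one of the 9 fits.

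No hypertrophy marker gene passed the adjusted threshold. Of 28 tested, 2 were higher and 0 lower at an unadjusted p under 0.05 (Nmrk2 and Mybpc2; median 0.06). Nppa, the atrial natriuretic peptide gene and the usual sign of a strained ventricle, was at 373, 499.7, 238, 595 and 463 CPM in WT-CD and at 429, 973, 1089.7 and 636 CPM in R403Q-EMPA. The groups overlapped (0.85 ± 0.66, edgeR adjusted p = 0.667). Untreated R403Q-CD hearts held 883, 1151 and 10996 CPM as lowest, median and highest of 7. The highest had atrial markers at a sum of 13869 CPM, against 1183 to 1891 CPM in WT-CD and 1421 to 2216 CPM in R403Q-EMPA. Nppa is itself one of the atrial markers, so 10996 of these 13869 CPM were Nppa. Nppb stood at 0.02 ± 0.40 on the log2 scale (adjusted p = 0.996), skeletal actin Acta1 at 0.68 ± 0.68 (adjusted p = 0.766) and the stretch-responsive Ankrd1 at -0.43 ± 0.35 (adjusted p = 0.688). The errors leave room for differences in both directions in these 4 genes. In the exchanged-diet comparison the list had 11 higher and 4 lower genes, also without R403Q-CD mouse 2 (8 and 5 without mice 2 and 5).

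In the reported fit myosin and filament genes held no called gene. That absence depended on the fit: Tcap was called in 5 of the 19 alternatives, and the calcium handling gene Camk2b in 6. Myh7, the β-myosin heavy chain of the fetal and stressed heart, was at 2885, 2952, 2627, 2896 and 2894 CPM in WT-CD and at 3111, 3485, 3477 and 3314 CPM in R403Q-EMPA. The groups did not overlap, but the difference of 0.23 ± 0.11 did not pass (edgeR adjusted p = 0.414). Myh6 had 40617 to 46201 CPM and 31549 to 40980.3 CPM (-0.31 ± 0.20, adjusted p = 0.566). Of 30 myosin and filament genes, 0 were higher and 7 lower at an unadjusted p under 0.05 (median -0.15), among them the ventricular light chain Myl3 (-0.28), the tropomyosin gene Tpm1 (-0.35) and the Z-disc gene Tcap (-0.78). Of 28 calcium handling genes, 1 was higher (S100a1, 0.25) and 5 were lower, including the junction protein gene Jph2 (-0.29) and the kinase gene Camk2d (-0.18), with a median of -0.05. The calcium pump gene Atp2a2 had -0.16 ± 0.19 (adjusted p = 0.810).

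Among fibrosis genes, Col22a1 alone was called. Of 29 collagen chains, 0 were higher and 1 was lower at an unadjusted p under 0.05 (median 0.18), where 7.17% of all tested genes were higher. The exchanged-diet comparison, in other mice and with 16.7% of all genes higher, had 17 of 28 higher and 0 lower (16 without R403Q-CD mouse 2). The list's median of WT-EMPA minus WT-CD was -0.37, which also enters those values. R403Q-EMPA against R403Q-CD, the direct comparison of diets in R403Q hearts, called 0 genes. Col1a1 was at 35.9 to 116 CPM in WT-CD and 41.6 to 143 CPM in R403Q-EMPA (0.18 ± 0.68, edgeR adjusted p = 0.955), and R403Q-CD mice held 48.5, 79.9 and 681 CPM as lowest, median and highest. Col3a1 was at 92.1, 145, 56.0, 47.1 and 178 CPM and 97.7, 245, 79.1 and 72.0 CPM (0.25 ± 0.77, adjusted p = 0.943), with R403Q-EMPA mouse 2 alone above all controls. Postn, a matrix protein of activated fibroblasts, had -0.03 ± 0.80 (adjusted p = 0.997), and Ccn2, a profibrotic signal, 0.05 ± 0.40 (adjusted p = 0.985). Col22a1, a collagen of tissue junctions, fell from 3.65 ± 0.523 to 1.55 ± 0.232 CPM (-1.23 ± 0.21, adjusted p = 0.0123), a call lost only without R403Q-EMPA mouse 3 among the 9 fits (adjusted p = 0.0633). Its exchanged-diet value was 0.42. Of 52 matrix, crosslinker and profibrotic genes 4 were higher and 4 lower (median 0.0014), against 24 and 3 of 51 with exchanged diets (18 and 5 without R403Q-CD mice 2 and 5).

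In the reported fit energy metabolism outside the lipid genes held no called gene, though Klf15 was called in 6 of the 19 alternatives, Bckdk in 3 and Slc2a4 in 2. All 28 tested branched-chain amino acid genes but 2 had values below 0 (median -0.15), and 4 were lower at an unadjusted p under 0.05. One was Bckdk, the kinase that restrains branched-chain breakdown (-0.24 ± 0.07, edgeR adjusted p = 0.144), and the others were Acad8 (-0.22), Pccb (-0.37) and Klf15. Ppm1k, the opposing phosphatase, had -0.06. With exchanged diets 12 of 28 were lower and 0 higher (16 and 1 without R403Q-CD mouse 2, 13 and 3 without mice 2 and 5). Pyruvate dehydrogenase and citric acid cycle genes had 1 higher and 2 lower of 36 (median -0.13), with citrate synthase Cs at 1590.1 to 1839 CPM and 1365 to 1480.3 CPM (-0.25 ± 0.15, adjusted p = 0.532). Glycolysis and glucose transport genes had 2 higher and 4 lower of 36. Slc2a4, the insulin-responsive glucose transporter GLUT4, had 633 to 710.1 CPM in WT-CD and 484 to 584 CPM in R403Q-EMPA (-0.34 ± 0.16, adjusted p = 0.39997). Of 36 complex I genes 1 was lower, and of 36 genes of complexes III to V none had an unadjusted p under 0.05, with medians of -0.0028 and -0.02. The ketone genes had 2 higher and 2 lower of 11, and Bdh1, which oxidizes the ketone body β-hydroxybutyrate, had -0.22 ± 0.32 (adjusted p = 0.860).

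Sodium handling, which has been discussed for cardiac actions of EMPA, had 1 higher and 0 lower of 20 tested genes. The bicarbonate cotransporter gene Slc4a4 was the higher one (0.26), while the SGLT1 gene Slc5a1 had 0.11 ± 0.32 (edgeR adjusted p = 0.942). Insulin and mTOR signalling genes had 4 higher and 4 lower of 45. Igfbp3, a carrier of insulin-like growth factors, fell from 65.5 ± 12.6 to 37.5 ± 6.53 CPM (-0.80 ± 0.17, adjusted p = 0.0456), a call that each of the 9 mice, when left out, ended (up to 0.133, without R403Q-EMPA mouse 1), as did cage as a random effect (0.0718) and scaling by library size alone (0.0793). Over all tested genes 7.17% were higher and 5.05% lower at an unadjusted p under 0.05. Lipogenic and cholesterol synthesis genes were close to these shares, with 3 higher and 3 lower of 40. The higher ones were the desaturase gene Scd4 (1.07), the LXRα gene Nr1h3 (0.44) and the cholesterol exporter gene Abca1 (0.34), and the lower ones were the fatty acid synthesis genes Fasn (-0.63) and Acaca (-0.26) and the desaturase gene Scd1 (-1.32). Peroxisomal fatty acid genes (1 higher of 20), immediate early genes (1 higher and 3 lower of 27), the integrated stress response (1 higher of 23), heat shock proteins (2 lower of 22) and the cell cycle (1 higher and 2 lower of 30) held no called gene in the reported fit.

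**Figure D5:**
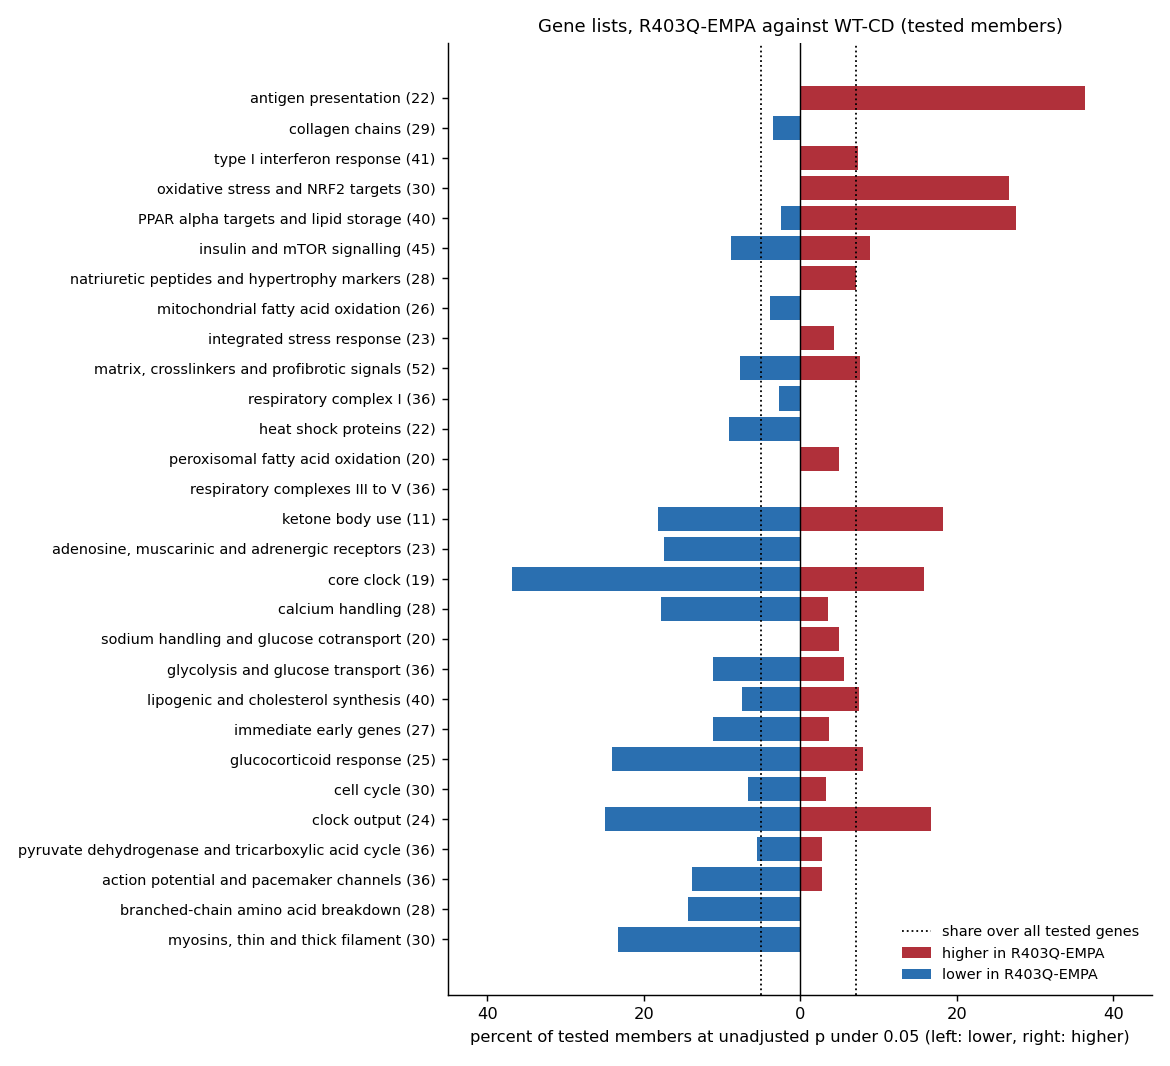
Percent of tested members of each list other than the 8 genotype markers at an unadjusted p under 0.05 in R403Q-EMPA against WT-CD, with higher genes to the right and lower genes to the left of 0, the number tested in brackets, and dotted lines at the shares over all tested genes (7.17% higher, 5.05% lower). Among the lists drawn, antigen presentation, PPARα targets and NRF2 targets reach farthest to the right, and the core clock, clock output, glucocorticoid and filament lists farthest to the left.

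Within 5000000 bases on each side of Myh6 (GRCm38, chromosome 14, 54941921 to 54966927, minus strand), 139 genes were tested, 0 were called and 19 (13.7%) had an unadjusted p under 0.05. Over all tested genes these shares were 0.493% and 12.2%. Chromosome 11 held 12 of the 84 called genes, 0.898% of its 1337 tested genes against 0.493% over all. In GENCODE annotation of GRCm38, Chrm2 lies on chromosome 6, 36388084 to 36528414, plus strand, Adora1 on chromosome 1, 134199223 to 134235431, minus strand, Htatip2 on chromosome 7, 49759115 to 49773975, plus strand, Ftl1 on chromosome 7, 45457944 to 45459884, minus strand, Plin2 on chromosome 4, 86648386 to 86670060, minus strand and Ciart on chromosome 3, 95878503 to 95882251, minus strand. Of the 54 higher genes 45 are protein coding, and of the 30 lower genes 27. The share of protein coding genes over all tested genes was not counted, so these counts are description only.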

How the data were processed

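Left ventricular RNA of 21 mice was sequenced as paired-end poly(A) libraries. Per the labels and the study's methods, the authors aligned reads to mm10 with STAR 2.6.0c and counted uniquely aligned, properly paired reads of nonmitochondrial genes with featureCounts of Subread 1.6.2; FastQC 0.11.7 was among their tools. The authors deposited raw counts for 55450 genes and log2-scaled variance-stabilized values made with DESeq2 1.32.0. Here the deposited counts were used for all results, and the log2 values for 1 alternative.

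Samples were grouped by the group names in their titles. Genes passed edgeR's filterByExpr with a minimum count of 10. TMM scaling and edgeR's quasi-likelihood F test (edgeR 4.0.16, R 4.3.3) were applied in 1 fit of the 16 mice of WT-CD, R403Q-CD and R403Q-EMPA, with Benjamini-Hochberg adjustment over all tested genes and a threshold of 0.05. R403Q-CD against WT-EMPA was fitted on its own 12 mice. CPM used TMM factors of all 21 mice. SE belongs to the log2 fold change. The test treats mice as independent, and no cage held mice of both groups, so its p-values do not account for cage. GENCODE M21 named 55190 of the genes. The steps were tested on simulated counts.

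The members and gene lists were chosen with earlier results of these data known. Named genes were the 15 higher and 15 lower called genes of smallest p with a symbol that is not provisional, every called gene in a list, every gene called in both comparisons, the smallest p of each list in each direction, and 29 pathway genes. Some genes that the rule names are not reported here. Alternatives were DESeq2 1.42.0, other scalings, no filter, fits of 9 or 21 mice, limma 3.58.1 on the variance-stabilized values, cage as a random effect, and leaving out each mouse. Leaving out R403Q-CD mouse 2, or mice 2 and 5, was chosen after the data were seen.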

Additional observations from a re-analysis of the deposited data

Results flagged for a closer look

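In 14 of 224 groups of values for named genes, 1 mouse stood apart from the rest of its group by Dixon's criterion at the 95% level, which chance alone gives in about 1 of 20 groups. In R403Q-EMPA, mouse 2 stood apart in Ftl1 (154.3 CPM, the others 187.6 to 193.8), Arrdc2 (8.167 CPM, the others 7.292 to 7.378), Sorcs2 (11.71 CPM, the others 13.34 to 13.67) and Col3a1 (245.4 CPM, the others 71.98 to 97.67). Mouse 1 of that group stood apart in Hif3a (11.08 CPM, the others 13.53 to 13.84), Ccn2 (176.7 CPM, the others 362.9 to 400.0) and Prdx6 (246.6 CPM, the others 211.0 to 212.5). Mouse 4 was high in St3gal5 (84.89 CPM, the others 72.26 to 73.32) and Klf15 (127.1 CPM, the others 91.66 to 95.7), and mouse 3 low in Mef2c (71.98 CPM, the others 86.71 to 88.96). In WT-CD, mouse 4 was high in Ccl6 (26.73 CPM, the others 18.43 to 20.42). Mouse 3 was low in Myh7 (2627 CPM, the others 2885 to 2952) and high in Acaa1a (74.58 CPM, the others 65.17 to 67.55), and mouse 1 was low in Notch4 (65.48 CPM, the others 71.99 to 74.04).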

How the results depend on the processing

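Against 84 called genes (54 higher, 30 lower; 28 with the same and 7 with the opposite sign at an unadjusted p under 0.05 in R403Q-CD against WT-EMPA), the DESeq2 Wald test called 421 (271 and 150; 134 and 46), a fit of the 9 mice alone 668 (393 and 275; 217 and 61), a fit of all 21 mice 168 (104 and 64; 59 and 18), and the fit with cage as a random effect 45 (27 and 18; 16 and 4). Leaving R403Q-CD mouse 2 out of both fits, chosen after the data were seen, gave 417 (277 and 140; 140 and 47), and leaving out R403Q-CD mice 2 and 5, also chosen then, 578 (343 and 235; 168 and 68). Scaling by library size alone gave 100 calls (71 higher, 29 lower) with 11 of the opposite sign, and moved the median of all genes from 0.0087 to 0.0495 on the log2 scale. Leaving out 1 of the 9 mice gave 25 to 52 calls, 20 to 34 higher, 5 to 20 lower, 8 to 16 of the same sign and 1 to 7 of the opposite sign. The cause of these changes was not tested. Median-of-ratios scaling (82), no filter (81) and limma on variance-stabilized values (98) stayed within 1.5 times of 84. Of values for named genes under the alternatives, 1954 kept their side of the threshold, 89 passed only there and 180 passed only in the reported fit. None of the 84 called genes reversed direction in any of the 19 alternatives. Of list medians, 555 moved by less than the spread between mice and 15 by more. No paired analysis was possible because the labels give no replicate numbers and no cage held both a WT-CD and an R403Q-EMPA mouse. With 4 mice against 5, small differences in variable genes such as Nppa and Col1a1 could not be detected, and genes near 0.128 CPM rest on about 3 counts.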
